A study of Mus musculus with 6 samples.

Results

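The proteasome genes of tumour-infiltrating CD8+ T cells were compared between mice treated with IL-10/Fc and mice treated with PBS. The members were every listed gene whose symbol begins with Psm, one of the letters a to g, and a number. They came to 50 of 15898 listed genes, and all 50 passed the filter on low counts that left 15477 genes for testing. Of these, 46 encode proteasome subunits, activators, inhibitors or assembly chaperones, and 4 carry a Psm symbol without being such a gene in the lists used here: the pseudogenes Psmb5-ps and Psmb6-ps2, the Psme2 copy Psme2b, and Psmc3ip, which encodes a partner of meiotic recombinases. The testis subunit Psma8 and the thymus subunit Psmb11 were not analysed here.

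The data held 6 libraries, 2 from the PBS group and 4 from the IL-10/Fc group. The hosts were C57BL/6 mice that received 4 Gy of total body irradiation, naive Thy1.1+ PMEL T cells (B6 background with the Thy1a allele and the transgene Tg(TcraTcrb)8Rest, a T cell receptor for a melanocyte antigen) and then a B16F10 melanoma. On day 10 both groups were given activated Thy1.2+ PMEL CD8+ T cells. From that day IL-10/Fc, an interleukin-10 fused to an antibody Fc part (20 µg), or PBS was injected beside the tumour in 4 doses. Age and sex of the hosts are not given. On day 18 Thy1.1+PD-1+TIM-3+CD8+ cells, the phenotype that the labels call terminally exhausted, were sorted at 500 cells per library with a purity above 99%, so the cells analysed are the naive-transferred PMEL cells and not the cells infused on day 10. Both groups share the irradiation and the transfer of activated cells, and no library comes from an untreated tumour. Whether the libraries of a group came from separate mice is not stated in the labels. The p-values then measure only how far these samples spread, and that spread may be technical.

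The proteasome is the protease that degrades ubiquitin-tagged proteins. Its 20S core is a barrel of stacked rings: outer alpha rings, which gate the entry, and inner beta rings, which hold the catalytic sites. Psmb5 (chymotrypsin-like), Psmb6 (caspase-like) and Psmb7 (trypsin-like) are the constitutive catalytic subunits. Interferon-gamma signalling can induce Psmb8, Psmb9 and Psmb10, which take the places of Psmb5, Psmb6 and Psmb7 in newly built cores, the immunoproteasome, and shift the cut peptides toward ends that suit MHC class I. The 19S regulatory particle, made of an ATPase ring, further base subunits and a lid, binds, unfolds and deubiquitinates substrates, whereas PA28 (Psme1 and Psme2, or Psme3 in the nucleus) opens the core without ubiquitin or ATP. Lymphocytes are known to hold much of their proteasome in the immuno form.

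Nrf1 and the factors of interferon signalling are known to act at promoters of these genes, so short promoter stretches are shown for genes that the catalytic, activator, 19S and chaperone results turn on, on either side of 0. They come from RefSeq windows (GRCm38.p6) of 250 bases before to 50 after a start site, which were found for 41 of the 50 members. Each is 30 bases, 5′ to 3′ on the strand of the gene, with the match in capitals.

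Psmb5: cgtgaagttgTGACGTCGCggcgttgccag

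Psmb6: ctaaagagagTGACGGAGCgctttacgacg

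Psmb8: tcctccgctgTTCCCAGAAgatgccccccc

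Psme1: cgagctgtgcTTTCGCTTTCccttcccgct

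Psmg4: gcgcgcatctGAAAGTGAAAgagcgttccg

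Psmd2: gcgcgtggccTTCTGGGAAaaggggcggtg

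Psmd9, first: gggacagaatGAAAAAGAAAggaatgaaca

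Psmd9, second: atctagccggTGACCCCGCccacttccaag

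The capitals in Psmb5 (chr14:54618023-54618052, minus strand, match at position -47 from the start site) and Psmb6 (chr11:70525338-70525367, plus strand, position -9) match TGACNNNGC, the antioxidant response element type that Nrf1 (Nfe2l1) is known to bind in proteasome genes. The second Psmd9 stretch (chr5:123228149-123228178, plus strand, position -31) matches the same letters. Those in Psmb8 (chr17:34198088-34198117, plus strand, position -97) and Psmd2 (chr16:20651646-20651675, plus strand, position 4) match TTCNNNGAA, the gamma-activated site of interferon-gamma signalling. Those in Psme1 (chr14:55578493-55578522, plus strand, position 9), Psmg4 (chr13:34162969-34162998, plus strand, position 15) and the first Psmd9 stretch (chr5:123228021-123228050, plus strand, position -159) match GAAANNGAAA, the interferon-stimulated response element type bound by interferon regulatory factors. The RefSeq start of Psmd9 lies inside the deposited interval of that gene, not at its beginning. Interferon motifs thus occur in windows of genes with IL-10/Fc levels above PBS and of genes with levels below. The Psmb8, Psme1 and Psmg4 stretches also lie inside the first exon of an annotated GENCODE transcript of the same gene. Both strands of every window were searched, and the 3 motifs share no letters in the stretches shown.

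Over all 32851 RefSeq windows, 12.4% held TGACNNNGC, 8.3% held TTCNNNGAA and 3.44% held GAAANNGAAA. Among the 41 member genes with a window, 6 held the antioxidant type (Psmb5, Psmb6, Psmc6, Psmd9, Psmd12 and Psme4), 3 the gamma-activated type (Psmb8, Psmd2 and Psmg1) and 5 the interferon-stimulated type (Psmb3, Psmd4, Psmd9, Psme1 and Psmg4). The windows of Psmb9, Psmb10 and Psme2 held neither interferon motif in these letters, which says only that the letters are not in those windows.

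Psmb9 and the peptide transporter gene Tap1 lie head to head on chromosome 17. Their RefSeq starts are separated by the 225 bases of chr17:34187331-34187555, and that interval holds 1 CCAAT and 1 GGGCGG match, the latter on the minus strand. Both are shown on the plus strand with the match in capitals, as the shared control region that the Psmb9 and Tap1 values below can be read against. The deposited intervals differ from these starts. That of Psmb9 ends at 34187764 and contains the whole stretch, and that of Tap1 begins at 34187553.

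Psmb9 to Tap1, CCAAT: tttCCAATcagcggctgcgcgcggtgcagg

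Psmb9 to Tap1, GGGCGG: cagactgaggccCCGCCCcatcatcgcgca

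The stretches span chr17:34187331-34187360 and chr17:34187368-34187397. CCAAT was found in 37.4% and GGGCGG in 35.7% of all windows.

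Library totals were 26738871 and 28774401 counts in PBS against 28235203 to 36941814 in IL-10/Fc, at which 3 counts equal 0.0812 to 0.112 CPM (counts scaled to a common library total). All levels below are CPM after TMM scaling. Scaling by library size alone moved the median log2 fold change over all genes from -0.01 to -0.18, a shift of -0.17, so differences are read relative to that shift where it matters. All 10 markers of the gate and of T cells were listed, with sums of 17291 and 21752 CPM in PBS against 24398 to 28111 in IL-10/Fc. Trbv14 was the largest part of each sum, at 8478 to 12020 CPM. Of the 10 markers 9 were higher with IL-10/Fc and 1 lower. The lower gene was Pdcd1, at 1578 and 1286 CPM in PBS against 700, 1112, 994 and 867 in IL-10/Fc. PBS replicate 1 stood apart in some genes: Cd8a measured 910 CPM there against 2292 in PBS replicate 2 and 2896 to 3161 in IL-10/Fc. Ifng measured 193 CPM there against 1424 in PBS replicate 2 and 1346 to 3774 in IL-10/Fc. Cd8b1, Cd3e, Cd3g, Thy1 and Trbv14 were also lower in PBS replicate 1 than in PBS replicate 2, whereas Cd3d, Pdcd1, Havcr2 and Trac were higher. Trac measured 1946 CPM in PBS replicate 1 against 992 in PBS replicate 2 and 1402 to 1752 in IL-10/Fc. Of 18 macrophage and monocyte markers 17 were listed (not Mertk), and 14 of the 16 tested were higher with IL-10/Fc. Their sum was 1681 to 2494 CPM in PBS against 3346 to 7005 in IL-10/Fc, mostly Ly6c2, which activated CD8+ T cells also express. Without Ly6c2 the other 16 genes summed to 321 and 483 CPM in PBS against 244, 558, 1048 and 1068 in the IL-10/Fc libraries (replicates 1 to 4), and Mrc1 was at 0 in both PBS libraries. Of the 9 dendritic and MHC class II markers 7 were listed (228 to 310 CPM in PBS, 172 to 1915 in IL-10/Fc), and of the 7 NK markers 6 (77.8 to 113 and 119 to 532). The listed markers of B cells, neutrophils, melanoma, and fibroblasts with endothelium each summed to at most 20.4 CPM in any library. In bulk libraries fewer cells of a type and less RNA per cell cannot be told apart.

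No member passed the edgeR quasi-likelihood test at an adjusted p of 0.05 in either direction (0 of 50, lowest adjusted p = 0.193). Over all genes that test called 1 gene, 0.00646% of those tested, which was higher with IL-10/Fc (0.00646% higher, 0.00% lower), and limma-voom gave the same shares, 0.00646% in all, 0.00646% higher and 0.00% lower, again with 0 members. At an unadjusted p under 0.05 the edgeR test held 10 members (20%), 6 higher and 4 lower with IL-10/Fc, where all genes gave 12.7% (7.20% higher and 5.52% lower). DESeq2's Wald test called 4 members (8%) where it called 4.74% of all genes (3.24% higher and 1.51% lower). In the authors' deposited table the same 4 members passed, where 5.30% of all 15898 genes did (3.57% higher and 1.72% lower).

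Those 4 members have different jobs. The deposited table of the authors gave log2 fold changes of 0.72 for the immuno subunit Psmb10 (adjusted p = 0.00831) and 0.48 for the core assembly chaperone Psmg4 (adjusted p = 0.037). It gave -0.64 for the 19S base subunit Psmd2 (adjusted p = 0.00587) and -0.66 for the 19S assembly chaperone Psmd9 (adjusted p = 0.00226). In 16 of 50 members (32%) the libraries of the groups did not overlap, against 23.6% of all genes. In 11 of these, 22% of the members, levels were higher with IL-10/Fc (12.1% of all genes): Psma2, Psma3, Psma7, Psmb1, Psmb9, Psmb10, Psmb6-ps2, Psme1, Psme2, Psme2b and Psmg4. In 5, or 10%, they were lower (11.5% of all genes): Psmc3, Psmd2, Psmd3, Psmd5 and Psmd9. The higher names are core, immuno, PA28 and core chaperone genes and copies, and the lower names are all genes of the 19S particle or of its assembly. The share of lower members was not above that of all genes. Psmd3 was separated only by the step from 38.4 to 38.6 CPM, and the pseudogene Psmb6-ps2 was close to the floor of 3 counts.

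**Figure D1:**
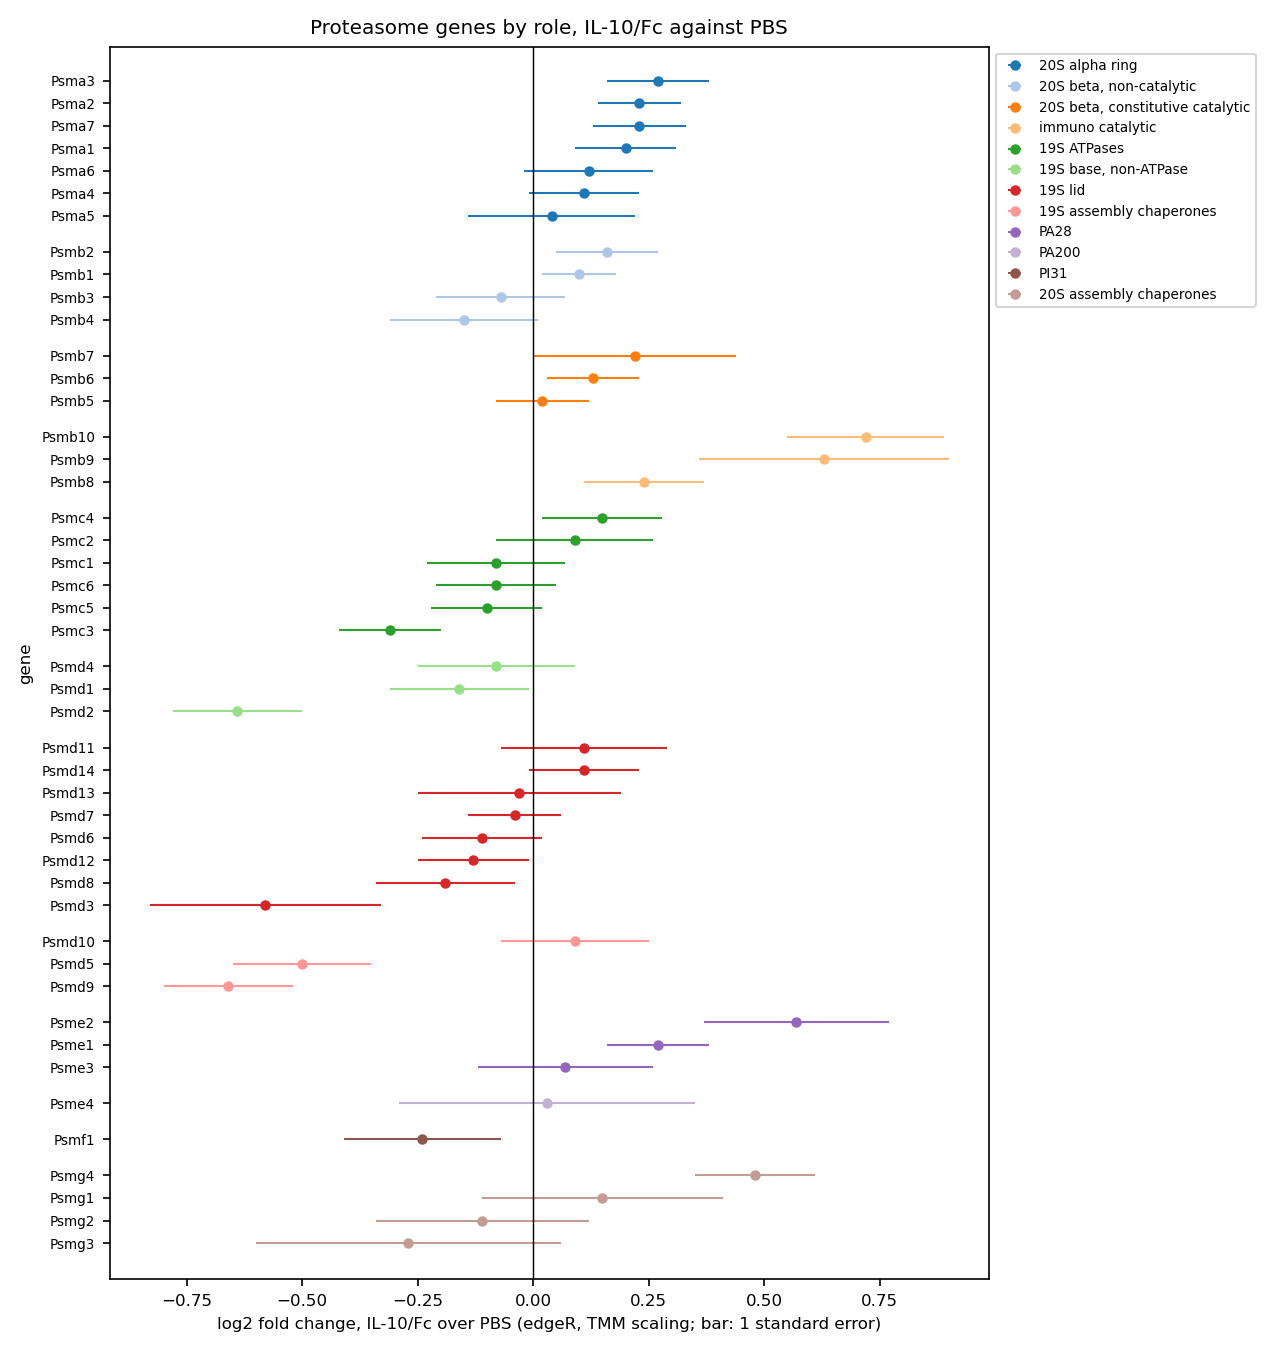
Log2 fold change of IL-10/Fc over PBS (x axis, edgeR with TMM scaling) for the 46 named proteasome genes, 1 row per gene, grouped and coloured by role; points are estimates from 2 PBS and 4 IL-10/Fc libraries and bars are 1 standard error. Psmb10 at 0.72, Psmb9 at 0.63 and Psme2 at 0.57 lie farthest right, and Psmd9 at -0.66 and Psmd2 at -0.64 farthest left.

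The groups overlapped for all 3 constitutive catalytic subunits. Psmb5 (chromosome 14, 54614120 to 54617995, minus strand) measured 190 and 197 CPM in PBS against 186, 183, 209 and 205 in IL-10/Fc. Psmb6 (chromosome 11, 70525367 to 70527858, plus strand) measured 695 and 615 against 692, 665, 772 and 740 CPM. Psmb7 (chromosome 2, 38588036 to 38644087, minus strand) measured 14.1 and 17.5 against 17.1, 17.1, 22.2 and 17.6 CPM. For each gene at least 1 PBS library lay within the IL-10/Fc range. The log2 fold changes were 0.02 (SE 0.10) for Psmb5, 0.13 (SE 0.10) for Psmb6 and 0.22 (SE 0.22) for Psmb7, with edgeR adjusted p of 0.977, 0.67 and 0.745. By library size alone Psmb5 was at -0.15 and Psmb6 at -0.04, so no direction can be given for them.

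None of the 3 immuno subunits passed the edgeR test, and the groups were without overlap for Psmb10 and Psmb9 but not for Psmb8. Psmb10 (chromosome 8, 105935735 to 105938444, minus strand) measured 214 and 305 CPM in PBS against 381, 470, 409 and 445 in IL-10/Fc. Every IL-10/Fc library was above both PBS libraries, and the log2 fold change was 0.72 (SE 0.17, edgeR adjusted p = 0.214). Psmb9 (chromosome 17, 34181988 to 34187764, minus strand) measured 56.4 and 114 CPM in PBS against 134, 129, 128 and 137, a log2 fold change of 0.63 (SE 0.27, edgeR adjusted p = 0.403). The IL-10/Fc values of Psmb9 were close together, 132 ± 4.3 CPM (SD, n = 4), while the PBS libraries differed from each other, 85.1 ± 40.6 (SD, n = 2). Psmb8 (chromosome 17, 34197721 to 34201454, plus strand) measured 921 and 1220 CPM in PBS against 1254, 1264, 1206 and 1335 in IL-10/Fc. Its groups overlapped, since PBS replicate 2 was above IL-10/Fc replicate 3, and the log2 fold change was 0.24 (SE 0.13, edgeR adjusted p = 0.497).

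PBS replicate 1 was the lowest library for all 3 immuno subunits, and the size of the difference rests on it. Without that library the log2 fold changes were 0.48 for Psmb10 (edgeR adjusted p = 0.445), 0.21 for Psmb9 (0.652) and 0.05 for Psmb8 (0.924). Without PBS replicate 2 instead they were 1.0, 1.22 and 0.46 (edgeR adjusted p of 0.112, 0.0523 and 0.149). The order of the 3 genes thus also depended on which PBS library was used, while each stayed above 0. The median over the immuno subunits was 0.63, 0.21 without PBS replicate 1 and 1.0 without PBS replicate 2, and 0.47 by library size alone. For the constitutive subunits the median was 0.13, and -0.04 by library size alone, and over all genes it was -0.01.

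Other cell types were read beside these values. The macrophage and monocyte sum with Ly6c2 was 2494 and 1681 CPM in PBS against 7005, 5884, 3346 and 5629 in IL-10/Fc, highest in IL-10/Fc replicate 1, where the sum without Ly6c2 was the lowest of the 6 libraries. The dendritic and MHC class II sum was 228 and 310 CPM in PBS against 172, 651, 1915 and 1011 in IL-10/Fc. Of its 7 genes 5 were higher with IL-10/Fc and 2 lower. Among them Itgax was at 3.84 and 9.64 CPM in PBS against 57.8, 59.1, 11.3 and 9.55 in IL-10/Fc. Zbtb46 went the other way, at 61 and 23.3 CPM against 4.76, 9.38, 21.7 and 18.9. The NK sum was 113 and 77.8 CPM in PBS against 119, 218, 532 and 437 in IL-10/Fc. The part of myeloid or NK RNA in the values of the immuno subunits was not tested in any library. The level of Cd8a, which was lowest in PBS replicate 1 together with the immuno subunits, was set beside them as a value only, and its part was not tested either. Trac, of the same marker list as Cd8a, was highest in that library.

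**Figure D2:**
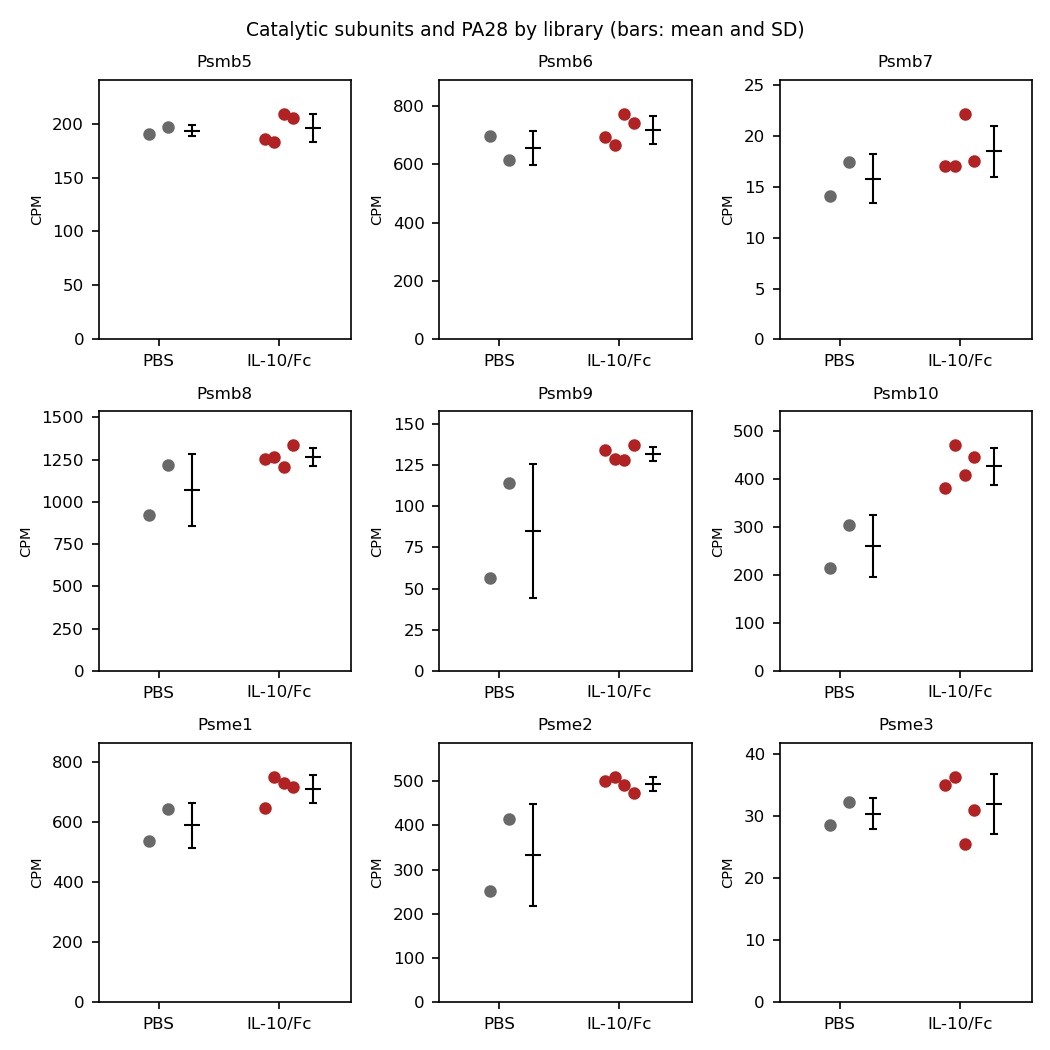
CPM (y axis from 0, TMM-scaled) of the 3 constitutive subunits, the 3 immuno subunits and the 3 PA28 subunits in each library; points are libraries (2 PBS, 4 IL-10/Fc), and the bars beside them are mean and SD. The IL-10/Fc points of Psmb10 (381 to 470) and Psme2 (473 to 510) are all above the PBS points, while Psmb5 (183 to 209) spans them.

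Each immuno transcript was set against that of its constitutive counterpart as a ratio within a library, which no scaling of libraries can alter. Replacement of subunits in the particle was not measured. The ratios are of counts, not set per length, and are read only between libraries. The ratio Psmb10/Psmb7 was 15.2 and 17.4 in PBS against 22.3, 27.6, 18.5 and 25.2 in IL-10/Fc, with no overlap, a log2 difference of 0.51. Psmb8/Psmb5 was 4.86 and 6.18 against 6.75, 6.92, 5.76 and 6.52 (log2 difference 0.24), and here IL-10/Fc replicate 3 fell between the PBS libraries. Psmb9/Psmb6 was 0.0812 and 0.185 against 0.193, 0.194, 0.165 and 0.185 (log2 difference 0.59). All 3 differences had p = 0.133 in a two-sided exact permutation test over samples (15 arrangements) (0.133 after Benjamini-Hochberg adjustment over the 3 pairs), and a design of 2 against 4 cannot go below 0.0667. Without PBS replicate 1 the Psmb9/Psmb6 difference was -0.01, that of Psmb8/Psmb5 0.07 and that of Psmb10/Psmb7 0.41.

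Per kilobase of exon, Psmb8 made up 75.1% ± 3.17 (SD, n = 2) of Psmb8 plus Psmb5 in PBS against 78.1% ± 1.41 (SD, n = 4) in IL-10/Fc. Psmb10 made up 93.5% ± 0.588 of Psmb10 plus Psmb7 in PBS against 95.3% ± 0.795 in IL-10/Fc, with no overlap. Psmb9, in contrast, was the minor partner, with 7.21% ± 3.72 of Psmb9 plus Psmb6 in PBS against 9.81% ± 0.638 in IL-10/Fc. The 3 catalytic positions thus had unlike transcript balances in both groups. The Psmb8 share is uncertain because listed copies of Psmb5 held 37.1% of the reads of Psmb5 and its copies together. With those reads added to Psmb5 the share was 65.5% ± 4.05 (SD, n = 2) in PBS against 69.2% ± 1.72 (SD, n = 4) in IL-10/Fc, and the count ratio Psmb8/Psmb5 was 3.03 and 3.91 against 4.22, 4.37, 3.64 and 4.12, a sum chosen after seeing the data. The groups overlapped in both. The Psmb10 share is uncertain because 34.9% of the exon length of Psmb7 overlaps the gene Nek6, and the sources used here do not say how reads there were counted. For Psmb9, 15.7% of its exon length overlaps Tap1, and for a library type that does not mark strand those reads cannot be told apart.

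**Figure D3:**
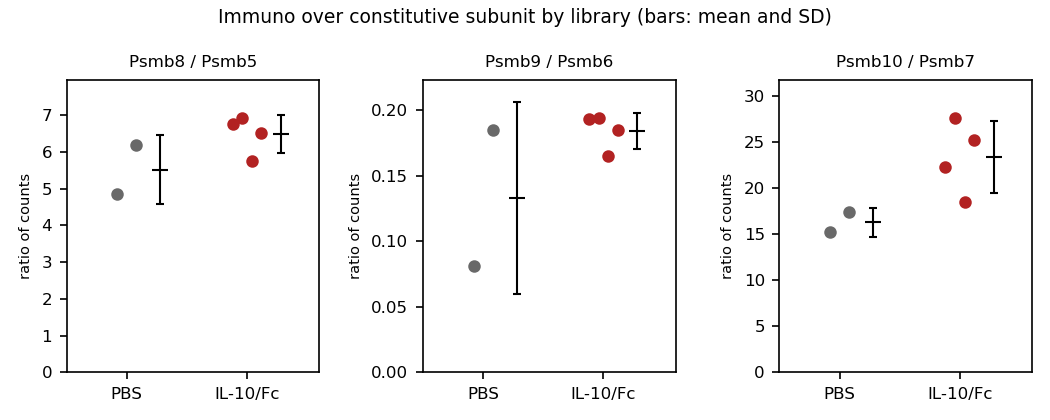
Ratio of immuno to constitutive counts within each library (y axes from 0) for Psmb8/Psmb5, Psmb9/Psmb6 and Psmb10/Psmb7; points are libraries (2 PBS, 4 IL-10/Fc), bars mean and SD. Psmb10/Psmb7 is 18.5 to 27.6 in IL-10/Fc and 15.2 to 17.4 in PBS, and in the other panels the groups overlap, with PBS replicate 1 lowest at 4.86 and 0.0812.

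Psmb9 did not keep a fixed proportion to its head-to-head neighbour. Tap1 measured 98.4 and 76.9 CPM in PBS against 74.3, 90.4, 86 and 81.1 in IL-10/Fc, with a log2 fold change of -0.08 (SE 0.15, edgeR adjusted p = 0.892). The ratio Psmb9/Tap1 was 0.573 and 1.48 in PBS against 1.8, 1.42, 1.48 and 1.69 in IL-10/Fc. The low value again belonged to PBS replicate 1, and the groups overlapped. Psmb8, whose deposited interval begins 496 bases after that of Tap1 ends, and Tap2, which begins 2073 bases after Psmb8, complete this cluster. Tap2 had a log2 fold change of 0.01 (SE 0.25). Among the immuno subunits themselves Psmb10/Psmb8 was 0.232 and 0.25 in PBS against 0.304, 0.372, 0.339 and 0.333 in IL-10/Fc, and Psmb9/Psmb8 was 0.0612 and 0.0932 against 0.107, 0.102, 0.106 and 0.103. For both ratios the groups did not overlap, with PBS replicate 1 lowest. Neither ratio was among the pairs tested by permutation.

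PA28, the activator that interferon-gamma is also known to induce, had alpha and beta subunits whose groups did not overlap, with IL-10/Fc above, and a nuclear gamma subunit whose groups did. None of the 3 passed the edgeR test. Psme2 (chromosome 14, 55587441 to 55591113, minus strand) measured 252 and 415 CPM in PBS against 501, 510, 491 and 473 in IL-10/Fc, with a log2 fold change of 0.57 (SE 0.20, edgeR adjusted p = 0.337). Psme1 (chromosome 14, 55578123 to 55581529, plus strand) measured 537 and 643 against 646, 751, 732 and 716 CPM, 0.27 on the log2 scale (SE 0.11, edgeR adjusted p = 0.393). Neither gene's groups overlapped, although for Psme1 the gap between PBS replicate 2 and IL-10/Fc replicate 1 was only that from 643 to 646 CPM. Psme3 (chromosome 11, 101316213 to 101323537, plus strand) measured 28.6 and 32.2 against 35, 36.3, 25.5 and 31 CPM, with overlap and a log2 fold change of 0.07 (SE 0.19, edgeR adjusted p = 0.934). It was at -0.10 by library size alone. Without PBS replicate 1 the values were 0.25 for Psme2, 0.14 for Psme1 and -0.01 for Psme3, and without PBS replicate 2 Psme2 was at 0.97 (edgeR adjusted p = 0.0523).

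Psme1 and Psme2 lie 5912 bases apart on chromosome 14 on opposite strands, and their products assemble into 1 ring. The ratio Psme2/Psme1 was 0.47 and 0.645 in PBS against 0.774, 0.679, 0.67 and 0.662 in IL-10/Fc, without overlap. PBS replicate 1 was again lowest, and this ratio was not tested. Set against the core, the sum of Psme1 and Psme2 was 0.133 and 0.184 of the summed 20S subunits in PBS against 0.187, 0.208, 0.183 and 0.175 in IL-10/Fc. Those groups overlapped. The copy Psme2b (chromosome 11, 48945354 to 48946190, minus strand) followed Psme2 closely, at 64.1 and 106 CPM in PBS against 137, 130, 125 and 121 in IL-10/Fc, and the ratio Psme2b/Psme2 was 0.254 to 0.274 in all 6 libraries. Since 69.3% of the 50-base stretches of Psme2b also occur in another gene, mainly Psme2, its reads cannot be assigned with certainty. Psme2 and Psme2b summed gave the same log2 ratio as Psme2 alone, 0.57.

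The 20S core without the immuno subunits comprised 14 genes, of which 12 were higher and 2 lower with IL-10/Fc by the sign of the edgeR fold change. Over all genes 49.3% were higher and 50.7% lower. The median of the 14 was 0.12 against -0.01 for all genes, and no gene passed the test. By library size alone 5 were higher and 9 lower, with a median of -0.05, where all genes gave 36.8% higher and 63.2% lower. All 7 alpha ring genes were on the higher side (median 0.20, range 0.04 to 0.27), but only 4 of the 7 by library size alone.

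Psma2 measured 570 and 652 CPM in PBS against 716, 680, 740 and 724 in IL-10/Fc (log2 fold change 0.23, SE 0.09, edgeR adjusted p = 0.389). Psma3 measured 270 and 291 against 303, 330, 366 and 349 CPM (0.27, SE 0.11, edgeR adjusted p = 0.389). Psma7 measured 634 and 697 against 732, 764, 767 and 851 CPM (0.23, SE 0.10, edgeR adjusted p = 0.404). In these 3 alpha ring genes every IL-10/Fc library was above both PBS libraries. The N-termini of alpha subunits close the pore. The other 4, Psma1, Psma4, Psma5 and Psma6, had overlapping groups and log2 fold changes of 0.04 to 0.20.

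The beta subunits without catalytic activity were split, with 2 on either side of 0. Psmb1 measured 611 and 621 CPM in PBS against 657, 643, 650 and 696 in IL-10/Fc, a narrow set without overlap (log2 fold change 0.10, SE 0.08, edgeR adjusted p = 0.672). Psmb2 measured 676 and 706 against 747, 676, 797 and 860 CPM (0.16, SE 0.11, edgeR adjusted p = 0.642). Psmb4 measured 392 and 278 against 286, 269, 331 and 322 CPM (-0.15, SE 0.16, edgeR adjusted p = 0.78). Psmb4 had its highest level in PBS replicate 1, and without that library it was at 0.12. Psmb1 and Psmb2 were at -0.07 and -0.01 by library size alone, so their direction depended on the scaling.

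The 19S particle comprised 17 genes, of which 4 were higher and 13 lower with IL-10/Fc, with a median of -0.08, where 49.3% of all genes were higher and 50.7% lower. By library size alone all 17 were lower, with a median of -0.26, where 63.2% of all genes were lower. The split rests on PBS replicate 1: without it 9 were higher and 8 lower, with a median of 0.01, where all genes gave 53.4% higher and 46.6% lower. No gene passed the edgeR test, and Psmd2 alone passed in the authors' deposited table. In 3 of the 17 (17.6%) the groups did not overlap, each with the IL-10/Fc libraries below. Over all genes 23.6% had groups without overlap, 11.5% with IL-10/Fc below, so the 19S share was below the background for both directions together and above that for lower levels alone.

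Psmd2 (chromosome 16, 20651652 to 20663414, plus strand), the base scaffold where ubiquitin shuttles dock, measured 216 and 200 CPM in PBS against 120, 125, 160 and 127 in IL-10/Fc. All 4 IL-10/Fc libraries were below both PBS libraries, 133 ± 17.9 (SD, n = 4) against 208 ± 11.4 (SD, n = 2), and the log2 fold change was -0.64 (SE 0.14, edgeR adjusted p = 0.197). It was -0.59 without PBS replicate 1 and -0.70 without PBS replicate 2, so neither PBS library decided it. The 2 other base subunits outside the ATPase ring overlapped between groups. Psmd1, a scaffold like Psmd2, measured 197 and 169 against 134, 163, 184 and 176 CPM (-0.16, SE 0.15, edgeR adjusted p = 0.752). Psmd4, a ubiquitin receptor, measured 359 and 257 against 289, 269, 269 and 338 CPM (-0.08, SE 0.17, edgeR adjusted p = 0.91) and was at 0.18 without PBS replicate 1.

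Among the 6 ATPases, which unfold substrates and thread them into the core, 2 were higher and 4 lower. Psmc3 measured 375 and 315 CPM in PBS against 267, 284, 258 and 300 in IL-10/Fc, with no overlap (log2 fold change -0.31, SE 0.11, edgeR adjusted p = 0.343). Psmc4 measured 345 and 304 against 317, 342, 376 and 408 CPM (0.15, SE 0.13, edgeR adjusted p = 0.704), and Psmc5 212 and 227 against 195, 188, 237 and 199 CPM (-0.10, SE 0.12, edgeR adjusted p = 0.816). Psmc4 was at -0.02 by library size alone. The ATPases form 1 ring, and their transcripts had a narrow range per exon length: 126 to 226 CPM per kb in PBS, 1.79-fold from Psmc2 to Psmc4.

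Of the 8 lid genes 2 were higher and 6 lower. Psmd3, a structural subunit of the lid, measured 53.9 and 38.6 CPM in PBS against 22.8, 38.4, 32.6 and 30.4 in IL-10/Fc. The groups of Psmd3 were separated only by the step from 38.4 to 38.6 CPM, and the log2 fold change of -0.58 (SE 0.25, edgeR adjusted p = 0.405) was -0.31 without PBS replicate 1. Psmd8 measured 429 and 311 against 313, 309, 360 and 314 CPM (-0.19, SE 0.15, edgeR adjusted p = 0.672), and Psmd12 167 and 210 against 172, 168, 186 and 163 CPM (-0.13, SE 0.12, edgeR adjusted p = 0.745). Each of those had the opposite sign when 1 PBS library was left out, Psmd8 at 0.06 without replicate 1 and Psmd12 at 0.05 without replicate 2. The remaining 5, among them the deubiquitinase Psmd14 (335 and 294 against 336, 299, 364 and 355 CPM), overlapped between groups.

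Core and regulatory particle were set against each other within each library as the ratio of their summed CPM, which is read only between libraries, since the sums are not per length. The 14 core genes summed to 5936 and 5752 CPM in PBS against 6137, 6056, 6671 and 6805 in IL-10/Fc. The 17 genes of the 19S particle summed to 4071 and 3635 against 3311, 3467, 3869 and 3837 CPM. The 19S sum was thus 0.686 and 0.632 of the core sum in PBS against 0.54, 0.572, 0.58 and 0.564 in IL-10/Fc, 0.659 ± 0.0382 (SD, n = 2) against 0.564 ± 0.0176 (SD, n = 4). Every IL-10/Fc library was below both PBS libraries in this ratio, which does not depend on the scaling of libraries, and PBS replicate 2 alone was also above all 4. The difference between the median log2 fold changes of core and 19S genes was 0.21, and 0.13 to 0.30 over the 14 alternatives, with the lowest value without PBS replicate 1 and the highest without PBS replicate 2. Whether the core sum itself was higher depended on the scaling, since as a share of counts the core was 0.612% and 0.654% in PBS against 0.579% to 0.656% in IL-10/Fc, with overlap, whereas the 19S share was 0.387% and 0.448% against 0.316% to 0.38%.

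**Figure D4:**
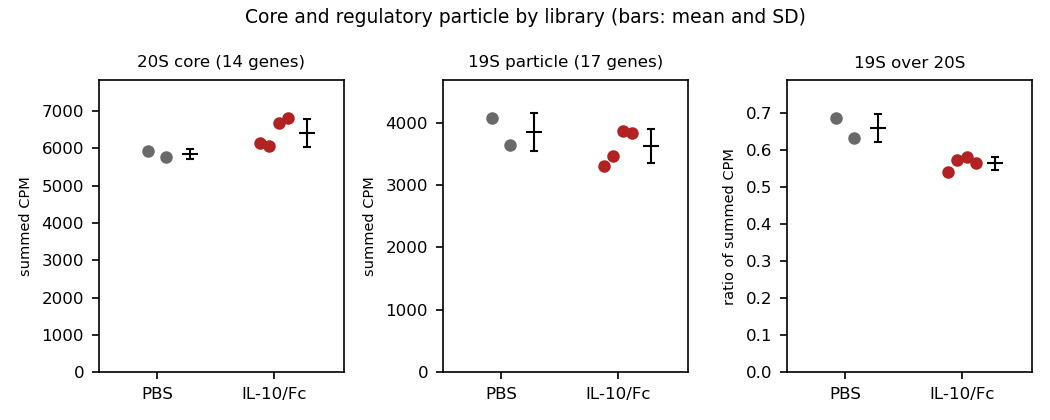
Summed CPM of the 14 core genes and the 17 genes of the 19S particle, and the ratio of these sums, in each library (y axes from 0); points are libraries (2 PBS, 4 IL-10/Fc), bars mean and SD. The ratio is 0.54 to 0.58 in IL-10/Fc and 0.632 to 0.686 in PBS, while the 19S sums overlap between the groups.

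The assembly chaperones, which leave before the finished particle works, held the lowest adjusted p among the members. Psmd9 (chromosome 5, 123169413 to 123250131, plus strand), which escorts ATPases into the base, measured 88.2 and 87.4 CPM in PBS against 52.3, 48.8, 61.3 and 59.7 in IL-10/Fc. The IL-10/Fc mean was 55.5 ± 5.96 (SD, n = 4) against 87.8 ± 0.57 (SD, n = 2), and the log2 fold change was -0.66 (SE 0.14, edgeR adjusted p = 0.193). It was -0.60 to -0.71 when any 1 library was left out. Psmd5, another chaperone of the base, measured 126 and 118 against 79.9, 104, 76.3 and 85.2 CPM (-0.50, SE 0.15, edgeR adjusted p = 0.283), also without overlap. Psmd10, or gankyrin, which binds the ATPase Psmc4, measured 93.9 and 119 against 103, 105, 110 and 134 CPM (0.09, SE 0.16, edgeR adjusted p = 0.895), so the values of the 3 base chaperones were not alike. Relative to the 19S sum the 3 were 0.0757 and 0.0891 in PBS against 0.0709, 0.0743, 0.064 and 0.0726 in IL-10/Fc.

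Psmg4, a chaperone of alpha ring assembly (chromosome 13, 34162964 to 34178172, plus strand), measured 45 and 52.3 CPM in PBS against 66.6, 74.4, 63.1 and 68.1 in IL-10/Fc. Its groups were well separated, 48.7 ± 5.19 (SD, n = 2) against 68 ± 4.7 (SD, n = 4), with a log2 fold change of 0.48 (SE 0.13, edgeR adjusted p = 0.265) that was 0.38 without PBS replicate 1. Its binding partner Psmg3 measured 9.99 and 14.4 against 8.18, 14.6, 9.29 and 8.47 CPM (-0.27, SE 0.33, edgeR adjusted p = 0.817) and was at 0.02 without PBS replicate 2. Psmg1, of the other chaperone pair, measured 7.41 and 7.55 against 8.88, 6.42, 8.83 and 9.09 CPM (0.15, SE 0.26, edgeR adjusted p = 0.884). Psmg2, the partner of Psmg1, was at -0.11 (SE 0.23). The difference between partners was not tested for either pair. Of the 4 core chaperones Psmg4 alone had groups without overlap.

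The remaining regulators varied as much within groups as between them. Psme4 (PA200), an activator linked to histone turnover, measured 36.1 and 23.5 CPM in PBS against 39.1, 25.3, 36.1 and 21.4 in IL-10/Fc (0.03, SE 0.32, edgeR adjusted p = 0.986). Psmf1 (PI31), first described as an inhibitor of the core, measured 136 and 107 against 95.4, 90.1, 103 and 124 CPM (-0.24, SE 0.17, edgeR adjusted p = 0.635). Among the rows that are no subunits, Psmc3ip measured 13 and 13.7 against 16, 17.6, 15.8 and 11.2 CPM (0.18, SE 0.24, edgeR adjusted p = 0.843). The pseudogene Psmb6-ps2 was at 0.543 and 0.523 CPM in PBS against 0.576 to 0.998 in IL-10/Fc (0.39, SE 0.71, edgeR adjusted p = 0.888), and Psmb5-ps at 0.238 to 0.425 CPM in all libraries. Such levels are close to the floor of 3 counts per library.

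Set per kilobase of exon, subunits of the same ring did not have equal values. The length used merges the exons of all basic transcripts of a gene and can exceed that of the transcript expressed, so the order of genes is approximate. Psmb1, with 3427 bases, was at 180 CPM per kb and Psmb2, with 859 bases, at 804 in PBS, from means of 616 and 691 CPM. In the core, Psmb6 was highest at 821 CPM per kb in PBS and Psmb7 lowest at 13.6, a 60.2-fold range, and 899 and 15.9 CPM per kb in IL-10/Fc. Psmb7 stood alone at the low end, since the next lowest core gene, Psma5, was at 58.5 CPM per kb in PBS without its copies, and the Nek6 overlap given above bears on its level. The median was 269 CPM per kb for the core and 135 for the 19S particle in PBS, compared with 265 and 133 in IL-10/Fc. On this scale Psmb8, at 658 and 777 CPM per kb, was among the highest members, above its constitutive counterpart Psmb5 at 215 and 218 (343 and 345 with the copies of Psmb5 added). The lowest gene of the 19S particle was the lid subunit Psmd3, at 21.5 and 14.5 CPM per kb.

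**Figure D5:**
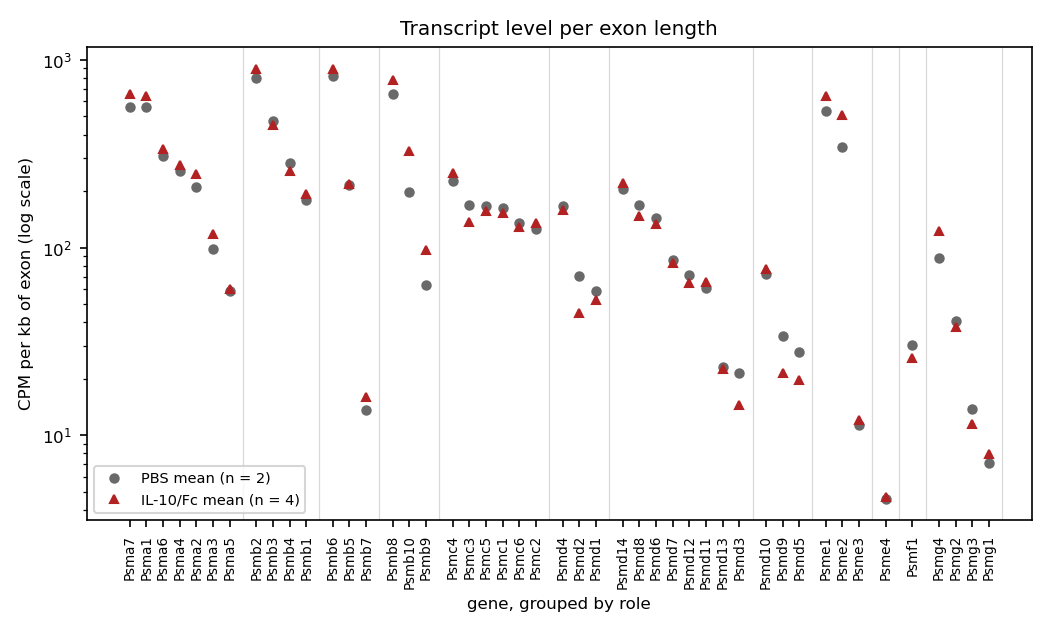
Mean CPM per kilobase of exon (y axis, log scale) of the 46 named proteasome genes, ordered within role, for PBS (circles, n = 2) and IL-10/Fc (triangles, n = 4). Psmb6 is at 821 and 899 and Psmb7 at 13.6 and 15.9, the ends of the core, while the group means of most genes nearly coincide.

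Several members have processed copies elsewhere in the genome that take reads. Of the 50 members 31 share at least one 50-base stretch with another gene, and 12 share over 10% of them. Among the 12 are Psmd9 (24.9%, shared with 254 genes) and Psmb3 (17.8%), for which no listed copies are given below. How reads of their shared stretches were counted is not known. Listed copies held 51.9% of the reads of Psma3 and its copies together, 42% for Psma5, 37.1% for Psmb5, 20.5% for Psme2, 16.6% for Psma4, 12.3% for Psmd2 and 6.43% for Psmc1. The levels of these 7 genes are uncertain by that much. Their log2 ratios moved by at most 0.01 when copies were added, a sum chosen after seeing the data: Psma3 was at 0.27 alone and 0.28 with copies, Psmb5 at 0.02 and 0.01, and Psmd2 at -0.64 and -0.65.

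Spread within groups was small for most members. The median coefficient of variation was 11.9% in PBS against 10.3% in IL-10/Fc, against 14.1% and 13.6% over the 5452 tested genes at 20 CPM or more, a level that 44 of the 50 members reached. PBS replicate 2 was above PBS replicate 1 in 26 of 50 members (52%) and in 49.4% of all genes, so the low values of PBS replicate 1 in Psmb8, Psmb9, Psmb10, Psme1 and Psme2 were not shared by the members as a whole. All members together took 1.25% to 1.4% of counts, with overlapping groups.

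Further genes of the pathway were taken from lists of 65 names, of which 61 were listed. None passed the edgeR or limma-voom test (0 of 61), and DESeq2 called 2 (Jak1 and B2m, both higher), a share of 3.28% against 4.74% of all genes. At an unadjusted edgeR p under 0.05 there were 6 higher and 1 lower, or 11.5% against 12.7% of all genes, so neither share was above the background. The 17 proteasome parts without a Psm symbol were split, 8 higher and 9 lower (median -0.00). Shfm1, the small lid subunit also known as Sem1, measured 159 and 163 CPM in PBS against 206, 210, 186 and 192 in IL-10/Fc (log2 fold change 0.30, SE 0.10, edgeR adjusted p = 0.299). Pomp, the maturation factor that core assembly needs, measured 402 and 384 against 527, 445, 494 and 593 CPM (0.39, SE 0.13, edgeR adjusted p = 0.318). In both genes every IL-10/Fc library was above the PBS libraries, while the ubiquitin receptor Adrm1 was below them, with 55.3 and 50.5 against 44, 44.2, 47.9 and 36.8 CPM (-0.29, SE 0.15, edgeR adjusted p = 0.489).

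Of the 9 genes of ubiquitin supply 5 were higher and 4 lower (median 0.01). The polyubiquitin gene Ubb measured 5451 and 5660 CPM in PBS against 6961, 7210, 6463 and 6595 in IL-10/Fc (0.29, SE 0.08, edgeR adjusted p = 0.246). Vcp, the unfoldase that hands ubiquitinated proteins to the proteasome, measured 122 and 129 against 98.4, 81, 103 and 75.9 CPM (-0.49, SE 0.15, edgeR adjusted p = 0.297). Ubb and Vcp were without overlap in opposite directions. On the Nrf1 axis, by which cells are known to replenish proteasomes, 2 of 10 genes were higher and 8 lower (median -0.28). Nfe2l1 itself was low and scattered, at 8.83 and 13.2 against 18.4, 6.49, 5.22 and 6.3 CPM. Of the factors that process Nrf1, the deglycosylase Ngly1 was at -0.55 on the log2 fold scale (SE 0.27, edgeR adjusted p = 0.468) and the protease Ddi2 at -0.63 (SE 0.47, edgeR adjusted p = 0.644). The ubiquitin ligase Syvn1, which marks Nrf1 for degradation, was at 0.50 (SE 0.25, edgeR adjusted p = 0.479) and its adaptor Sel1l at -0.56 (SE 0.31, edgeR adjusted p = 0.516). The Sel1l value rests on PBS replicate 1, since Sel1l was at -0.03 without that library, while leaving out replicate 2 gave -0.95.

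Of the 14 genes of the interferon axis 13 were higher and 1 lower (median 0.54), and 10 were higher by library size alone (median 0.38). Jak1, the kinase of interferon and interleukin-10 receptors, measured 180 and 165 CPM in PBS against 262, 312, 230 and 252 in IL-10/Fc (0.62, SE 0.14, edgeR adjusted p = 0.21), and the authors' deposited table gave an adjusted p of 0.00845. Irf9 measured 67.9 and 82.8 against 113, 122, 90.8 and 106 CPM (0.52, SE 0.16, edgeR adjusted p = 0.29). Neither overlapped between groups, whereas Irf2, at 13.5 and 16.3 against 16, 30.1, 24.1 and 25.7 CPM, did (0.68, SE 0.29, edgeR adjusted p = 0.401). PBS replicate 1 was below PBS replicate 2 in 8 of the 14 genes and above it in 6, Jak1 among these. Nlrc5, the transactivator of MHC class I genes, measured 29 and 58.9 CPM in PBS against 63.8, 68.7, 51.8 and 56.5 in IL-10/Fc and overlapped between groups.

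The 11 genes of peptide loading were split, 5 higher and 6 lower (median -0.00), and B2m had the lowest adjusted p among them. B2m, the light chain of MHC class I, measured 7221 and 9549 CPM in PBS against 13994, 14123, 11662 and 12739 in IL-10/Fc (0.65, SE 0.14, edgeR adjusted p = 0.2), with an adjusted p of 0.00772 in the authors' deposited table. The heavy chain gene H2-K1 had overlapping groups, at 3657 and 3957 against 3688, 4212, 3412 and 3360 CPM (-0.05, SE 0.11, edgeR adjusted p = 0.91). The chaperone Calr measured 42.7 and 87.6 against 137, 89.6, 109 and 94.3 CPM (0.72, SE 0.32, edgeR adjusted p = 0.428), and Pdia3, of the same loading complex, 610 and 918 against 873, 767, 927 and 874 (0.17, SE 0.17, edgeR adjusted p = 0.762). Calr was without overlap and Pdia3 was not. The size for Calr depended on which PBS library was left out: it fell to 0.29 without replicate 1, while leaving out replicate 2 gave 1.33.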

How the data were processed

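Smart-Seq2 libraries of 500 sorted cells (no molecular identifiers, no strand information) were analysed. The authors deposited integer read counts by gene, 1 table per library, and a series table that repeats them. Beside the counts, the authors deposited a log2 fold change and its standard error, the p-value raw and adjusted, the Wald statistic (a score) and the average normalized level (a signal) for every gene. Per the submitters' processing notes the tools were Trimmomatic, TopHat2 2.1.1, Bowtie2 2.2.9, Cufflinks 2.2.1, Cuffdiff and DESeq2 on GRCm38 (mm10). The read counter is not given. The PBS libraries are 2 and 3 in the file columns and 1 and 2 in the titles, which were followed. Libraries hold the 15898 listed genes only.

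Counts were filtered with filterByExpr, scaled by TMM (factors 1.1 and 1.06 in PBS, 0.95 to 0.983 in IL-10/Fc), then tested by edgeR 4.0.16 (robust quasi-likelihood, Benjamini-Hochberg over 15477 genes at 0.05, two-sided). A group mean is given with its SD. A standard error is the log2 fold change over the root of F. DESeq2 1.42.0 and limma 3.58.1 were alternatives, and the fit was tested on simulated data. Exon lengths and overlaps are from GENCODE M21 (GRCm38), which holds all 50 members, 41 with the deposited interval. An exon length is that of all exons of the basic transcripts of a gene, merged. Coordinates are 1-based. No pair of libraries of a group agreed within sampling noise. Members and lists were chosen with earlier results of these data known. The text names the 6 catalytic subunits, PA28, the 3 members of each other role and the 3 genes of each pathway list with the smallest unadjusted p, and members called by edgeR or in the deposited table. A pathway gene that this rule selects is not reported here. Genes named beyond that rule (Tap1, Tap2, Nlrc5, Nfe2l1, Ifng, H2-K1, Ddi2, Psmb5-ps, Psmg2, Psmd14 and the alpha subunits Psma1, Psma4, Psma5 and Psma6) were chosen after their values were seen.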

Additional observations from a re-analysis of the deposited data

Results flagged for a closer look

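In 5 of 73 groups of 4 libraries tested, 1 IL-10/Fc library lay far from the other 3 (a gap, relative to the range, above Dixon's 95% critical value), and chance alone flags about 1 group in 20. Psmb7 was at 22.2 CPM in IL-10/Fc replicate 3, with the others at 17.1 to 17.6. Psmg1 was at 6.42 CPM in replicate 2, with the others at 8.83 to 9.09. Psmb6-ps2 was at 0.998 CPM in replicate 4, with the others at 0.576 to 0.637. In replicate 3 the lid genes Psmd13, at 56.7 CPM against 39.2 to 42.2, and Psmd8, at 360 against 309 to 314, also stood apart.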

How the results depend on the processing

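Of the 49 named genes (35 members and 14 pathway genes), 34 kept their sign under every alternative and 15 did not. The count of all genes called (1) was 0 by library size alone, 0 without the robust option, 0 with the replicate block, 60 at 20 CPM in 2 libraries and 734 with DESeq2, and 0 to 16 when 1 library was left out (16 without PBS replicate 2, 1 without IL-10/Fc replicate 1, 0 otherwise). Members called were 0 in every edgeR and limma-voom fit and 4 with DESeq2 (adjusted p of 0.00512 for Psmb10, 0.0483 for Psmg4, 0.00518 for Psmd2 and 0.00347 for Psmd9). Pathway genes called were 0 and 2 (Jak1 0.00622, B2m 0.004). By library size alone the medians were -0.05 for the core, -0.04 for the constitutive subunits, -0.26 for the 19S particle and 0.10 for PA28. Leaving out 1 library moved the immuno median between 0.21 and 1.0, the 19S median between -0.22 and 0.01, and the Psmb9/Psmb6 difference between -0.01 and 1.18. Replicate numbers do not pair the libraries as far as the labels say (2 shared numbers, correlations of deviations 0.062 and 0.014). With the number as a replicate block the medians were 0.06 for the core, -0.19 for 19S, 0.05 for constitutive and 0.71 for immuno subunits. Signs turned by library size alone for Psmb5 (-0.15), Psmb6 (-0.04), Psme3 (-0.10), Psmb2 (-0.01), Psmb1 (-0.07), Psmg1 (-0.02), Psme4 (-0.14), Psmc4 (-0.02) and Psmd10 (-0.08). They turned at 20 CPM for Psmb5 (-0.01) and under the block for Psmb5 (-0.07) and Psmd10 (-0.02). Leaving out 1 library gave ranges that crossed 0 for Psmb5 (-0.02 to 0.05), Psme3 (-0.01 to 0.17), Psmb4 (-0.38 to 0.12), Psmg3 (-0.51 to 0.02), Psme4 (-0.24 to 0.37), Psmd4 (-0.30 to 0.18), Psmd10 (-0.08 to 0.27), Psmd8 (-0.40 to 0.06), Psmd12 (-0.29 to 0.05) and Pdia3 (-0.10 to 0.50). Without PBS replicate 1 the size was smaller by more than 1.5 times, with the sign kept, for Psmb7 (0.07), Psma2 (0.13), Psmc3 (-0.19), Psmd1 (-0.04), Psmf1 (-0.05), Psme2b (0.27) and likewise for Psmb8, Psmb9, Psme1, Psme2, Psmd3, Calr and Sel1l. The cause of these changes was not tested. With 2 PBS libraries a lone PBS library is assumed to vary like the other group.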
